A study of Mus musculus with 9 samples.

Results

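Toll-like receptors (TLRs) and the proteins that serve them were followed through the back skin of mice in which psoriasis-like inflammation was induced with imiquimod (IMQ), a small molecule that itself activates TLR7. The genes were chosen by symbol: the receptors Tlr2, Tlr3, Tlr4, Tlr7, Tlr8 and Tlr9, the co-receptor Cd14, the trafficking protein Unc93b1, the adaptor Myd88 and the transcription factor Irf5. All 10 were found among the 29205 genes of the deposited table, and all 10 passed the filter on low counts in each comparison. RNA of whole back skin from male BALB/c mice aged 6 to 8 weeks was sequenced in 3 groups with 3 libraries each, 9 in all. Every mouse had its back shaved and depilated. Control mice received no imiquimod (their treatment is labelled blank). IMQ mice received 62.5 mg of cream with 5% w/w imiquimod daily for 5 days, and LYS mice received the same cream together with Longkui Yinxiao soup (LYS), a herbal decoction given by gavage at the higher of the doses the study tested. Skin was collected on day 13 in all groups. The labels do not say whether each library came from a different mouse, so the p-values measure the spread between libraries, which may be partly technical.

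TLRs recognise microbial molecules. TLR2 and TLR4 sit on the cell surface and respond to bacterial lipoproteins and lipopolysaccharide, the latter with the help of CD14. TLR3, TLR7, TLR8 and TLR9 sense nucleic acids inside endosomes, which they reach only with the chaperone UNC93B1. All of these receptors except TLR3 signal through the adaptor MYD88, which leads to activation of NF-kB and of interferon regulatory factors such as IRF5 and so to the expression of inflammatory cytokines. In skin, these receptors are carried by macrophages, dendritic cells, neutrophils and mast cells, and some of them by keratinocytes.

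The promoters of 3 of these genes are shown as examples. Tlr8 was lowered by IMQ and Myd88 was raised by it. Tlr9 was higher in LYS than in Control skin and did not pass the test in the other comparisons. The mean level of Tlr8 was also highest in LYS skin, so the 3 genes do not stand for separate classes. Each line gives the 250 bases before the RefSeq transcription start (RefSeq, GRCm38.p6), read 5′ to 3′ in the direction of the gene. The Tlr8 window is chrX:167264330-167264579 (minus strand), the Tlr9 window is chr9:106222348-106222597 (plus strand) and the Myd88 window is chr9:119340019-119340268 (minus strand). Capitals mark matches, on either strand, to 4 short patterns.
Tlr8: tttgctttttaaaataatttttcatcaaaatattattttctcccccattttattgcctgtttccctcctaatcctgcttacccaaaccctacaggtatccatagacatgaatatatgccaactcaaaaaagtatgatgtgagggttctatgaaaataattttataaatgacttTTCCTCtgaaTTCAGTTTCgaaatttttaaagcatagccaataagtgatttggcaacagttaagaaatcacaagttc
Tlr9: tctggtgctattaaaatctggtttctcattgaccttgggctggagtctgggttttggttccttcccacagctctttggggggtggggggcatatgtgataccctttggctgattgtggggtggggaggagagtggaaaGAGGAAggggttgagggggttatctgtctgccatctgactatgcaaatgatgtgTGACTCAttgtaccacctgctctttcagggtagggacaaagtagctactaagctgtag
Myd88: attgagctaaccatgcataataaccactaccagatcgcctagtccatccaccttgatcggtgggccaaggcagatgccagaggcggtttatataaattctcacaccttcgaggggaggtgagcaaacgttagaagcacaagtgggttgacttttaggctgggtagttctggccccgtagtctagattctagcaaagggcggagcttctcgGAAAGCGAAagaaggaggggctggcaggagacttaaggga
The patterns were GAGGAA, the core bound by ETS factors such as PU.1 of myeloid cells, which 23.3% of 32851 promoter windows of this length hold, GAAANNGAA, an interferon-response core (7.13%), GGANTTTCC, an NF-kB type site (1.07%), and TGANTCA, an AP-1 site (6.75%). Tlr8 held the ETS core on the opposite strand, 77 bases before the start, and the interferon-response core on the opposite strand, 67 bases before it. In the Tlr9 window the ETS core lay 112 bases and the AP-1 site 58 bases before the start. The Myd88 window held an interferon-response core 40 bases before the start. RefSeq starts can differ from the gene ends of GENCODE M21 given below. The Myd88 and Tlr3 windows lie inside those gene spans and the Tlr2 window does so in part. Distances therefore refer to the RefSeq start only. No match overlapped another. RefSeq windows were matched for 6 of the 10 genes. Among the others of these 6, Tlr3 held an NF-kB type site 210 bases before its start, and Tlr2 and Irf5 held none of the 4 patterns. The patterns were searched only as written, so variant sites of the same factors were not looked for. Tlr4, Tlr7, Unc93b1 and Cd14 were not matched.

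Library totals ran from 14658645 to 19609878 counts. Levels are given as counts relative to library size (CPM), scaled over the 9 libraries by the trimmed mean of M values (TMM). The LYS libraries were not alike. In LYS 1, markers of keratinocytes summed to 35900 CPM against 21000 and 20200 in LYS 2 and LYS 3, and markers of macrophages to 1410 CPM against 2770 and 3340. For this reason the comparisons with LYS are also given without LYS 1. LYS 1 was singled out from these same data, so the fits without it are no independent support. The IMQ libraries also differed, with fibroblast markers at 6700 CPM in IMQ 1 against 2960 and 2140 in IMQ 2 and IMQ 3. Genes are called differentially expressed (DEGs) where the log2 fold change exceeds 0.58 in size and the adjusted p lies below 0.05, and higher and lower below refer to DEGs unless another test is named. The 3 comparisons share libraries and are not independent of each other.

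Fragments per kilobase of exon, scaled to the size of the library (FPKM), allow different genes to be ranked within a group. In Control skin, Unc93b1 stood first at 47.7 FPKM (39.1 to 60.6 over 3 libraries), followed by Cd14 at 17.1, Myd88 at 12.9 and Irf5 at 11.1 FPKM, and these 4 ranges did not overlap. Tlr7, the receptor of imiquimod, was the highest of the 6 TLRs at 6.95 FPKM, but its range overlapped that of Tlr4 (6.00 FPKM), as the range of Tlr4 did that of Tlr8 (5.23 FPKM). Tlr2 at 3.30 and Tlr3 at 2.70 FPKM also overlapped, and Tlr9 was lowest at 1.94 FPKM. In IMQ skin the order changed. Cd14 led at 217 FPKM (87.5 to 302), above Myd88 at 29.5 and Unc93b1 at 22.3, which overlapped. Irf5 followed at 11.1 FPKM and Tlr2 became the highest TLR at 7.53 FPKM, above the ranges of the other 5. Tlr4 (3.43), Tlr7 (1.94), Tlr9 (1.86) and Tlr8 (1.74 FPKM) each overlapped the next, and Tlr3 was lowest at 0.789 FPKM. In LYS skin Cd14 (130 FPKM) and Unc93b1 (77.3) overlapped at the top, above Myd88 at 28.5 and Irf5 at 17.7 FPKM. Irf5 overlapped Tlr2 at 13.4 FPKM. From Tlr2 the ranges of Tlr8 (7.79), Tlr4 (7.24), Tlr7 (6.53) and Tlr9 (6.37 FPKM) overlapped from each to the next, and Tlr3 was again lowest at 1.79 FPKM.

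The comparison of IMQ with Control asks how the model itself changed these genes. IMQ raised Cd14, Tlr2 and Myd88 and lowered Tlr3, Tlr7, Tlr8 and Unc93b1, so the receptor of imiquimod, Tlr8, Tlr3 and the protein that carries them to endosomes fell while a surface receptor, a co-receptor and the common adaptor rose. Of the 10 genes, 3 were higher and 4 were lower, where 24.1% of the 15976 genes tested were higher and 26.9% were lower. The IMQ and Control libraries did not overlap in CPM for any of the 10, with 5 genes above and 5 below. The same held for 31.6% of all genes above and 38.9% below, so complete separation of the groups was common here. The median log2 fold change of the 10 was 0.02, against -0.06 over all genes.

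**Figure D1:**
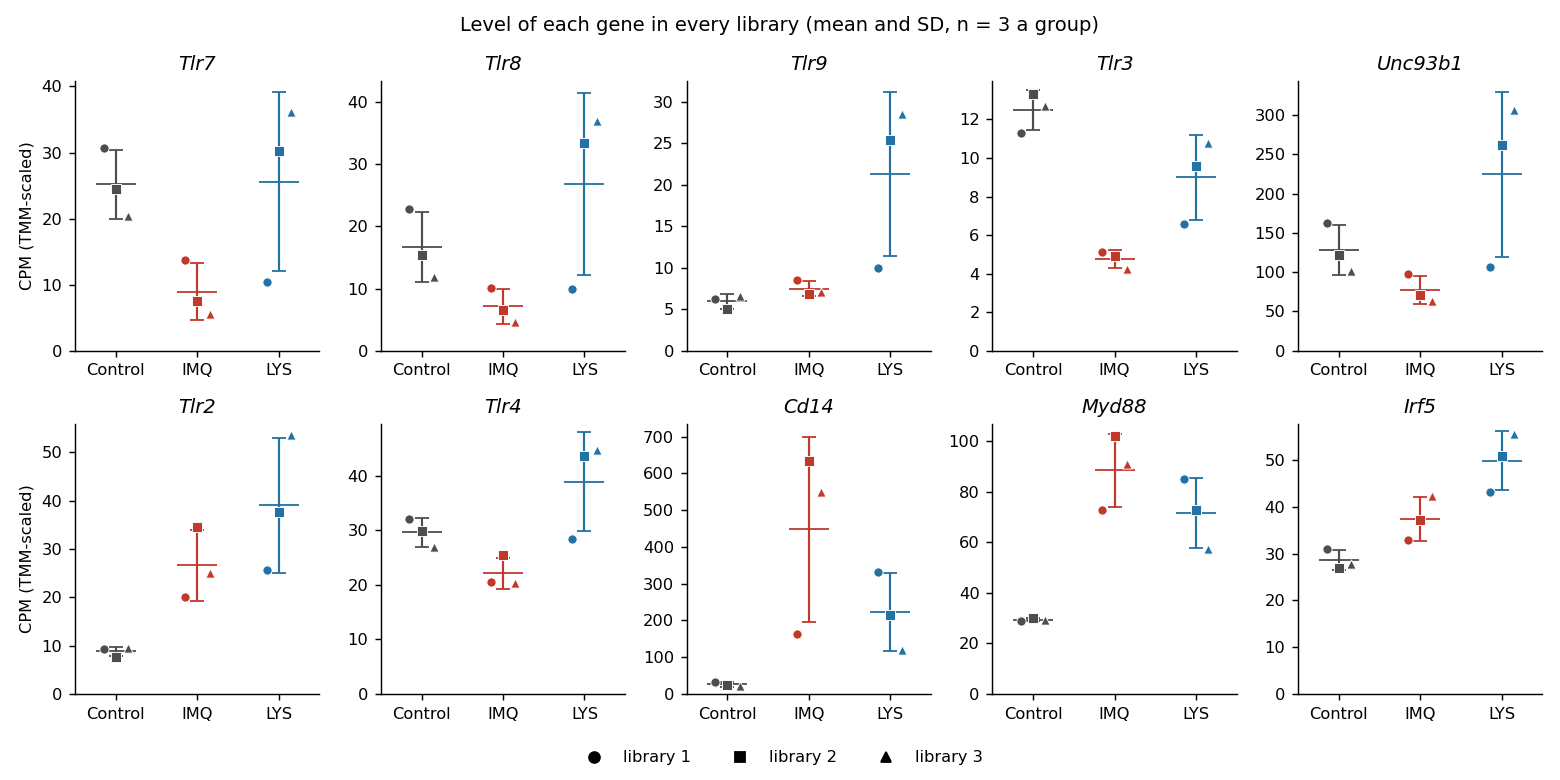
Level of each of the 10 genes in every library, in CPM on axes that start at 0, with the mean and SD of each group (n = 3) and a symbol for each library number. Tlr7, Tlr8, Tlr3 and Unc93b1 are lower in all IMQ than in all Control libraries, Tlr2, Cd14 and Myd88 are higher, and LYS 1 (circle) lies below LYS 2 and LYS 3 for each of the 6 TLRs, Unc93b1 and Irf5.

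Tlr7 (ENSMUSG00000044583, chrX:167304929-167330558 on GRCm38, minus strand) had 30.7, 24.5 and 20.4 CPM in the Control libraries and 13.8, 7.54 and 5.52 CPM in the IMQ libraries. It fell 2.68-fold, with a log2 fold change of -1.42 (SE 0.32, 95% CI -2.17 to -0.67, adjusted p = 0.00601). Tlr8, which lies beside Tlr7 (chrX:167242696-167264329) with 40599 bases and no annotated gene between them, had 22.8, 15.4 and 11.8 CPM in Control skin and 10.1, 6.62 and 4.59 CPM in IMQ skin. Tlr8 fell by 1.16 on the log2 scale (SE 0.33, adjusted p = 0.0171). This call for Tlr8 was lost without Control 1 (adjusted p = 0.0697), without IMQ 2 (0.0586) and when all 9 libraries were fitted together (0.0596). In bulk skin RNA, a smaller number of the cells that carry a receptor and less RNA of it per cell cannot be told apart.

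Tlr3, a sensor of double-stranded RNA (chr8:45395665-45411080, minus strand), had 11.3, 13.3 and 12.7 CPM in Control and 5.10, 4.91 and 4.23 CPM in IMQ libraries, the groups being far apart beside their spread. Its log2 fold change was -1.33 (SE 0.18, adjusted p = 4.31e-04), a 2.51-fold lower level. Tlr3 shares 381 exonic bases with the antisense gene Gm45542, and with a library kit that does not mark strand their reads cannot be told apart there. Unc93b1 (chr19:3935186-3949340, plus strand) had 163, 122 and 101 CPM in Control and 97.7, 70.9 and 63.8 CPM in IMQ libraries, close to touching. Its log2 fold change of -0.67 (SE 0.22, adjusted p = 0.0278) lost its call with all 9 libraries in the fit (adjusted p = 0.126), without Control 1 (0.104), Control 2 (0.0511), IMQ 2 (0.0971) or IMQ 3 (0.0943).

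Tlr9, the sensor of unmethylated CpG DNA (chr9:106222598-106226883, plus strand), was not a DEG. It had 6.25, 4.97 and 6.64 CPM in Control and 8.48, 6.83 and 7.09 CPM in IMQ libraries, with a log2 fold change of 0.39 (SE 0.20, 95% CI -0.08 to 0.86, adjusted p = 0.131). This direction depended on the scaling. Without scaling beyond library totals the median of all genes shifted to -0.51, Tlr9 stood at -0.06 and Irf5 at -0.0043, both above that median.

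Among the surface receptors, Tlr2 (chr3:83836272-83841767, minus strand) had 9.23, 7.71 and 9.41 CPM in Control and 20.0, 34.6 and 25.1 CPM in IMQ libraries. It rose 3.15-fold, with a log2 fold change of 1.66 (SE 0.22, adjusted p = 4.20e-04). Tlr4 (chr4:66827584-66930284, plus strand) had 32.0, 29.8 and 26.9 CPM in Control and 20.6, 25.4 and 20.4 CPM in IMQ libraries. Its log2 fold change of -0.36 (SE 0.14, adjusted p = 0.0548) missed both the fold threshold of 0.58 and the adjusted p threshold. Without scaling beyond library totals it was -0.81 with an adjusted p of 0.00159. Cd14 (chr18:36725067-36726798, minus strand), the co-receptor that hands lipopolysaccharide to TLR4, showed the largest difference of the 10. It had 33.7, 25.0 and 20.2 CPM in Control and 162, 634 and 549 CPM in IMQ libraries, so that even the lowest IMQ library lay far above Control. The rise was 17.8-fold, with a log2 fold change of 4.15 (SE 0.50, 95% CI 2.99 to 5.31, adjusted p = 2.76e-04).

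Myd88 (chr9:119335934-119341411, minus strand) had 29.0, 29.9 and 29.2 CPM in Control and 73.0, 102 and 91.1 CPM in IMQ libraries. The Control libraries were almost equal, and the rise of 3.15-fold had the smallest adjusted p of the 10 genes (5.07e-05, log2 fold change 1.65, SE 0.14). Irf5 (chr6:29526625-29541871, plus strand) had 31.1, 27.0 and 27.7 CPM in Control and 33.0, 37.3 and 42.3 CPM in IMQ libraries. Its log2 fold change of 0.45 (SE 0.13, adjusted p = 0.0183) passed the test but not the fold threshold, so it was no DEG. Myd88 shares 290 exonic bases with Acaa1a and Irf5 shares 411 with Tnpo3, in each case on the opposite strand.

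**Figure D2:**
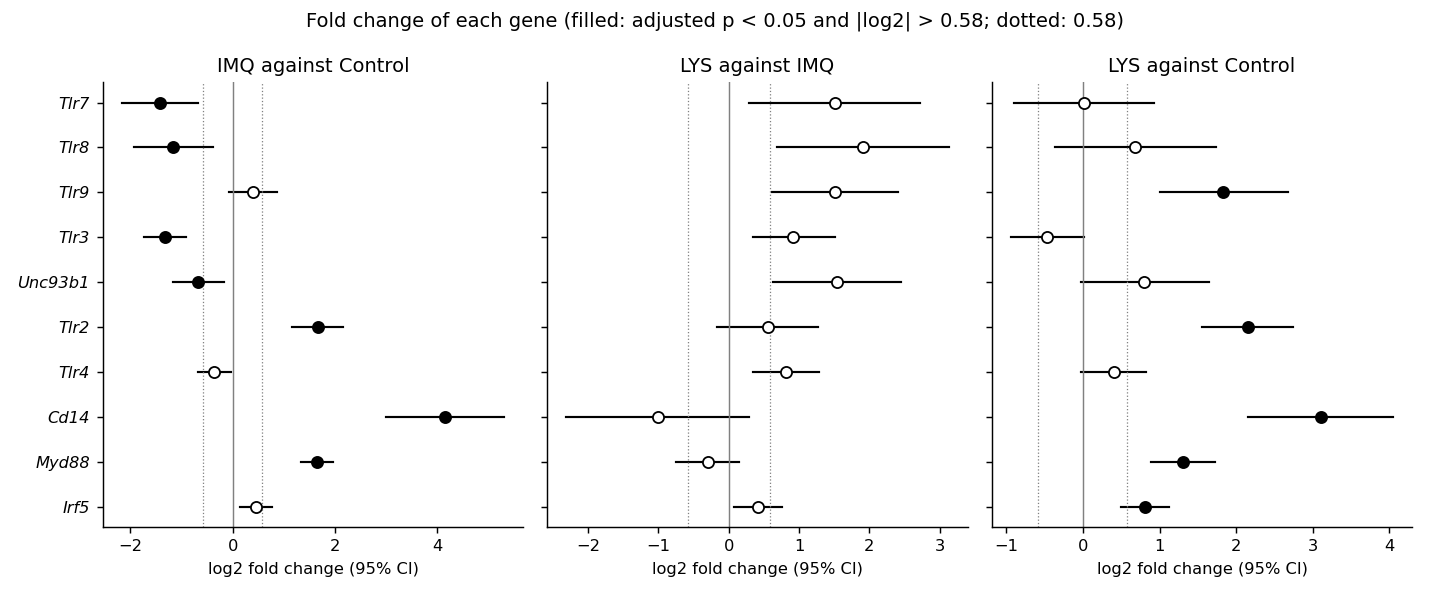
Log2 fold change of each gene with its 95% confidence interval in the 3 comparisons, each panel with its own axis range. Filled points mark DEGs: 7 in IMQ against Control, 0 in LYS against IMQ and 5 in LYS against Control. Dotted lines stand at 0.58 on each side of 0.

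The comparison of LYS with IMQ asks what the decoction changed in skin that also received imiquimod. Tlr8, Unc93b1, Tlr7, Tlr9, Tlr3 and Tlr4 had higher mean levels with LYS, by 0.82 to 1.91 on the log2 scale, and Cd14 and Myd88 had lower ones, but none of the 10 genes passed the adjusted threshold. The same was true of every gene in the table (0% higher and 0% lower of 15460 tested, smallest adjusted p 0.0591 with edgeR). At an unadjusted p under 0.05, 7 of the 10 were higher and 0 lower, against 19.3% and 15.9% of all genes. The libraries of LYS lay entirely above those of IMQ for 5 of the 10 (Tlr3, Tlr4, Tlr9, Unc93b1 and Irf5), against 19.2% of all genes. The median log2 fold change of the 10 was 0.87 and that of all genes 0.04.

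The result turned on LYS 1 and on the test. Without LYS 1, 6 of the 10 genes (Tlr3, Tlr4, Tlr7, Tlr8, Tlr9 and Unc93b1) were higher, against 14.9% of all genes. With any other single library of LYS or IMQ left out, 0 of the 10 were higher. Of all genes, 6.80% were higher without IMQ 1 and 0% in the remaining fits of this kind. DESeq2 with all libraries called 6 (12.8% of all genes), and a single edgeR fit over the 9 libraries also called 6 (9.93% of all genes).

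Tlr7 had 10.4 CPM in LYS 1, within the range of the IMQ libraries, 30.2 CPM in LYS 2, within the Control range, and 36.1 CPM in LYS 3, above it. Its log2 fold change was 1.51 (SE 0.51, 95% CI 0.29 to 2.72, adjusted p = 0.0926), and 1.87 without LYS 1 (adjusted p = 0.0145). Tlr8 behaved likewise, with 9.92 CPM in LYS 1 against 33.4 and 37.0 CPM in the others. Its log2 fold change of 1.91 (SE 0.52, adjusted p = 0.0654) became 2.29 without LYS 1 (adjusted p = 0.00778). Unc93b1 had 107, 262 and 307 CPM, all above the IMQ libraries, with a log2 fold change of 1.54 (SE 0.39, adjusted p = 0.0610), or 1.87 without LYS 1 (adjusted p = 0.00612). Tlr9 had 9.99, 25.4 and 28.5 CPM, also all above IMQ, with a log2 fold change of 1.51 (SE 0.38, adjusted p = 0.0610), or 1.84 without LYS 1 (adjusted p = 0.00551).

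The differences were smaller for Tlr3 and Tlr4. Tlr3 had 6.55, 9.61 and 10.8 CPM in LYS skin, between the IMQ and the Control libraries, with a log2 fold change of 0.92 against IMQ (SE 0.25, adjusted p = 0.0648). Tlr4 had 28.4, 43.6 and 44.7 CPM, with a log2 fold change of 0.82 (SE 0.20, adjusted p = 0.0610). Without LYS 1 the adjusted p was 0.0146 for Tlr3 and 0.00832 for Tlr4. Tlr2 had 25.6, 37.7 and 53.5 CPM, overlapping IMQ, and its difference of 0.56 had a 95% CI from -0.16 to 1.27.

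Of the genes that IMQ had raised, Tlr2 had a higher mean with LYS, as given above, and Cd14 and Myd88 had lower means, none of them called. Cd14 had 332, 215 and 120 CPM in LYS 1, LYS 2 and LYS 3, within or below the IMQ range, with a log2 fold change of -1.01 (95% CI -2.31 to 0.29, adjusted p = 0.227). Myd88 had 85.0, 72.8 and 57.4 CPM, with a log2 fold change of -0.30 (95% CI -0.75 to 0.14, adjusted p = 0.282). Irf5 had 43.1, 50.9 and 55.6 CPM, above each IMQ library by a small margin, with a log2 fold change of 0.41 (SE 0.15, adjusted p = 0.0982). LYS 1 was the highest for Cd14 and Myd88 and the lowest for Irf5.

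**Figure D3:**
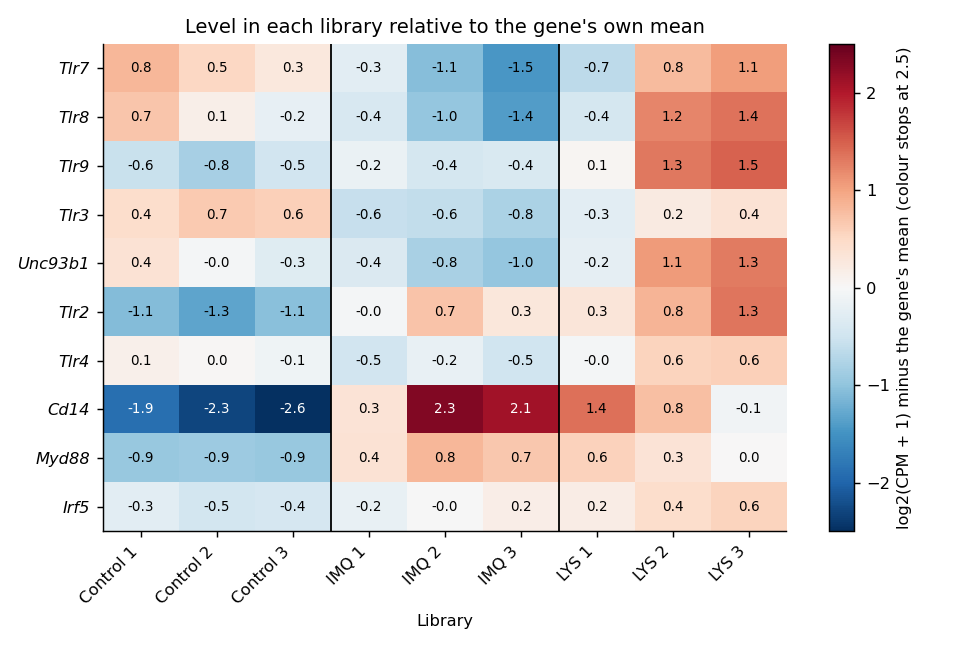
Log2(CPM + 1) of each gene in each library minus the gene's mean over the 9 libraries, red above and blue below the mean. Tlr7 and Tlr8 are below their means in the 3 IMQ libraries and in LYS 1 and above them in LYS 2 and LYS 3, while Cd14 and Myd88 are lowest in the Control libraries.

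The comparison of LYS with Control shows how far treated skin stood from skin that never met imiquimod. Tlr2, Tlr9, Myd88, Irf5 and Cd14 were higher and no gene was lower, that is 5 and 0 of the 10, where 15.1% of 16003 genes were higher and 12.9% lower. The LYS libraries lay entirely above Control for 5 of the 10 (25.0% of all genes) and entirely below for 1, Tlr3 (25.5% of all genes). The median log2 fold change of the 10 was 0.81, against -0.01 over all genes. Without LYS 1, 7 of the 10 were higher, against 15.5% of all genes, Tlr8 (log2 fold change 1.08, adjusted p = 0.0158) and Unc93b1 (1.14, adjusted p = 0.00542) being added.

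Cd14 was 8.58-fold higher in LYS than in Control skin (log2 fold change 3.10, SE 0.41, adjusted p = 0.00207). Tlr2 was 4.43-fold higher (log2 fold change 2.15, SE 0.26, adjusted p = 0.00147) and Myd88 2.47-fold higher (1.30, SE 0.18, adjusted p = 0.00231). Tlr9, whose difference had not passed the test with IMQ alone, was 3.57-fold higher in LYS skin (1.83, SE 0.36, adjusted p = 0.00881), with an adjusted p of 0.0502 when Control 2 was left out. Irf5 was 1.75-fold higher (0.81, SE 0.13, adjusted p = 0.00466). For Tlr7 the mean levels were close, at 25.6 ± 13.5 CPM in LYS and 25.2 ± 5.21 CPM in Control skin (SD, n = 3). The log2 difference of 0.02 had a 95% CI from -0.90 to 0.93, which is wide beside the changes described above and leaves the sign of a difference unresolved. Tlr3 at -0.47 (adjusted p = 0.116), Tlr4 at 0.40 (0.128), Tlr8 at 0.68 (0.282) and Unc93b1 at 0.80 (0.124) did not pass the test either.

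A share within a library does not depend on how libraries are scaled. Of the summed FPKM of the 6 TLRs, Tlr7 made up 28.2%, 27.0% and 24.2% in the Control libraries, 16.9%, 8.16% and 7.72% in the IMQ libraries and 11.1%, 16.0% and 16.0% in the LYS libraries. The Tlr7 share was lower in each IMQ and LYS library than in each Control library. Tlr2 went the other way, with 12.7% ± 2.11 in Control, 43.9% ± 9.30 in IMQ and 32.0% ± 4.89 in LYS skin (SD, n = 3). Tlr7, Tlr8 and Tlr9 together, the MYD88-dependent nucleic acid sensors, held 53.7% ± 4.70, 31.7% ± 10.1 and 45.7% ± 8.87 in the same order. The bacterial sensors Tlr2 and Tlr4 held 35.8% ± 2.79, 63.8% ± 10.4 and 49.9% ± 7.99. For each Tlr7 read there were 0.244 ± 0.0710 Tlr9 reads in Control, 0.935 ± 0.337 in IMQ and 0.863 ± 0.0877 in LYS skin, each IMQ and LYS library lying above each Control library. These shares and ratios are given without a test, since an exact permutation test of 3 against 3 libraries cannot go below p = 0.1.

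**Figure D4:**
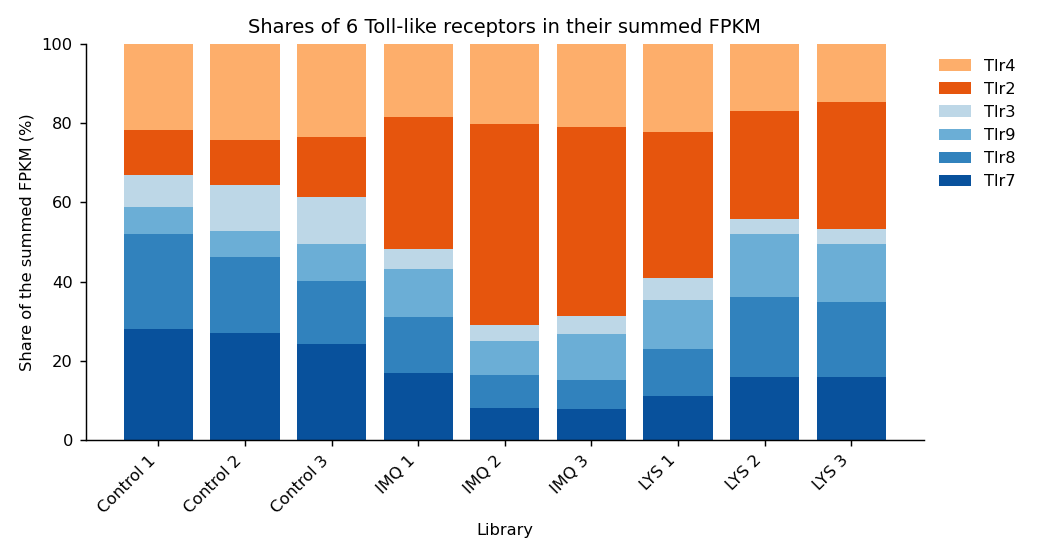
Share of each of 6 TLRs in their summed FPKM, in percent, in each library. The Tlr7 band is widest in the Control libraries (24.2% to 28.2%) and the Tlr2 band is wider in each IMQ library (33.3% to 50.7%) than in LYS 2 and LYS 3 (27.1% and 32.2%), while the Tlr2 share of LYS 1 (36.9%) lies within the IMQ range.

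Summed markers of several cell types, among them macrophages, mast cells, neutrophils and keratinocytes, lay apart between Control and IMQ skin. Those of conventional dendritic and Langerhans cells and of B cells overlapped. The summed level of 10 macrophage markers, among them Adgre1, Csf1r and the C1q genes, was 1390 to 1890 CPM in Control, 1080 to 1200 CPM in IMQ and 1410 to 3340 CPM in LYS skin. In IMQ against Control, 5 of these 10 were lower and 1 higher (median log2 fold change -0.67), and in LYS against IMQ 9 were higher at an unadjusted p under 0.05 (median 1.48). Summed monocyte markers ran from 324 to 514, 119 to 185 and 245 to 499 CPM in the same order, a sum carried by F13a1 (mean 301, 80.0 and 250 CPM). Of these 5 monocyte markers 2 were lower with IMQ (F13a1 and Ly6c2), 1 was higher (Chil3, from 1.08 to 3.07 CPM) and 2 were not called. Mast cell markers ran from 184 to 301, 67.9 to 101 and 137 to 265 CPM. Neutrophil markers were scarce in Control skin (22.3 to 27.8 CPM) and reached 199 to 559 CPM in IMQ and 168 to 362 CPM in LYS skin, 7 of the 8 tested being higher with IMQ. Keratinocyte markers rose from 6640 to 11300 CPM in Control to 44300 to 59500 CPM in IMQ skin (8 of 8 higher) and stood at 20200 to 35900 CPM with LYS, while fibroblast markers were at 14100 to 18400, 2140 to 6700 and 5480 to 11800 CPM. Markers of plasmacytoid dendritic cells, which carry TLR7 and TLR9, summed to 56.6 to 80.8, 30.0 to 50.1 and 36.5 to 58.4 CPM, but nearly all of this sum is Cox6a2 (mean 61.8, 28.3 and 40.0 CPM), which is also a gene of muscle, and skeletal muscle markers stood at 8330 to 9320, 1430 to 3500 and 3540 to 7530 CPM. The other markers of this cell type gave no common direction. With IMQ, Ccr9 was higher (from 1.17 to 7.06 CPM), Siglech (3.12 and 1.81 CPM) and Spib (0.483 and 0.662 CPM) were not called, and Pacsin1 and Klk1 had too few reads to be tested, Klk1 with 0, 55 and 4 reads in the Control libraries and 0 in each IMQ library. Conventional dendritic and Langerhans cell markers lay at 43.0 to 50.3, 50.1 to 76.7 and 43.1 to 72.6 CPM and B cell markers at 3.59 to 5.42, 4.01 to 8.04 and 4.69 to 15.7 CPM. Hair follicle markers, at 1860 to 3770 CPM in Control, were at 3.20 to 10.1 CPM in both treated groups. The part of these cell types in the differences of the receptor genes was not tested.

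Set against the reads of the 10 macrophage markers, Tlr7 still lay apart between Control and the other groups. There were 16.3, 15.5 and 14.6 Tlr7 reads per 1000 macrophage marker reads in Control, 11.7, 6.28 and 5.12 in IMQ and 7.38, 10.9 and 10.8 in LYS libraries. Each IMQ and each LYS library lay below each Control library. Unc93b1 overlapped between Control and IMQ on this scale, at 78.4 ± 7.15 and 67.0 ± 13.5 reads (SD, n = 3), and stood at 87.4 ± 10.1 in LYS skin. Tlr4, at 18.4 ± 1.21, 19.2 ± 1.89 and 16.4 ± 3.44 reads, overlapped in all 3 groups. Tlr8 was at 10.1 ± 1.83, 6.11 ± 2.22 and 10.1 ± 2.65 reads, with overlap between Control and IMQ. Tlr9, at 3.74 ± 0.893 in Control, was higher in each IMQ library (6.48 ± 0.744) and in each LYS library (8.26 ± 1.06). Tlr2 was at 5.50 ± 1.08, 23.0 ± 5.94 and 15.9 ± 2.29 reads. Macrophages are not the only source of these transcripts, and a ratio to markers of 1 cell type does not give a level per cell. The choice of denominator mattered. Per 1000 reads of Ptprc, which encodes the leukocyte protein CD45, Tlr7 had 403 ± 93.3 reads in Control, 117 ± 53.2 in IMQ and 139 ± 53.8 in LYS skin, again with Control apart. Tlr9, however, overlapped in all 3 groups per Ptprc read, at 94.8 ± 14.3, 98.5 ± 8.76 and 117 ± 35.5. Tlr4 (479 ± 116, 293 ± 43.2 and 223 ± 14.4) was lower in each IMQ and LYS library than in each Control library, and Unc93b1 (2040 ± 462, 1020 ± 206 and 1240 ± 384) was lower in each IMQ library. Tlr8 (262 ± 68.1, 93.5 ± 34.4 and 144 ± 59.4) was likewise lower in each IMQ library than in each Control library. Ptprc itself stood at 64.1 CPM in Control, 75.7 in IMQ and 175 in LYS skin, so the LYS ratios had a larger denominator. On the Ptprc scale Tlr9, Tlr4, Unc93b1 and Tlr8 thus compared differently with Control than on the macrophage scale.

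**Figure D5:**
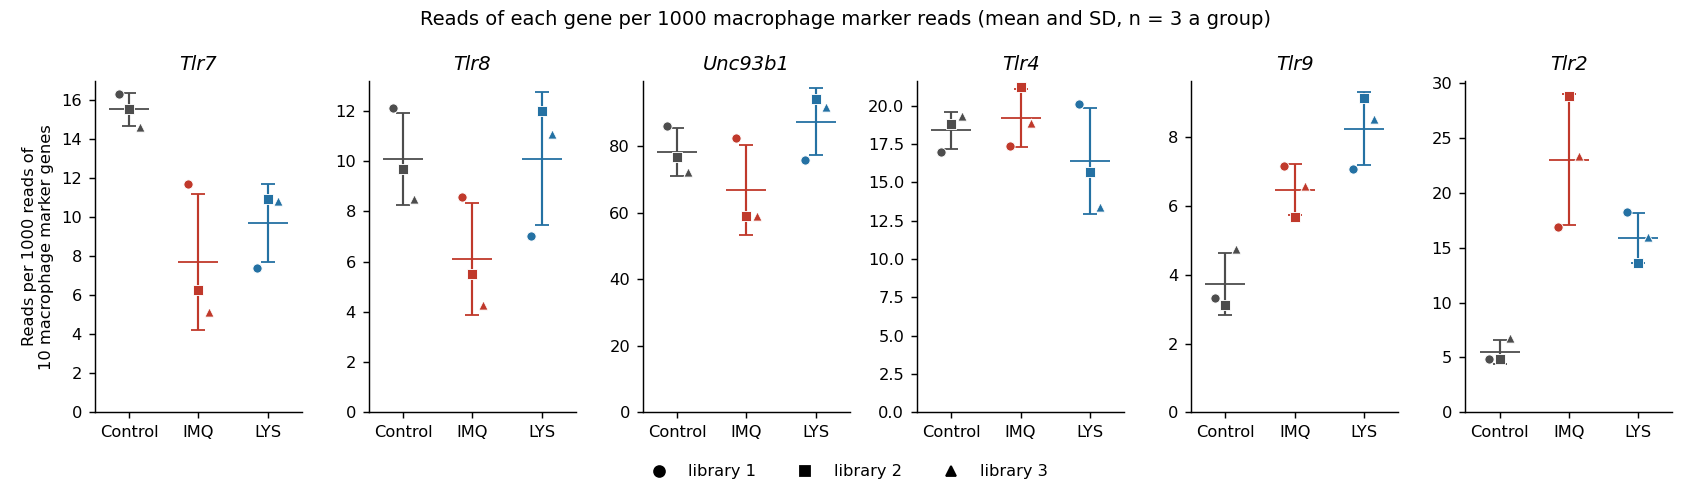
Reads of 6 genes per 1000 reads of 10 macrophage marker genes in every library, with the mean and SD of each group (n = 3), on axes that start at 0. All 6 IMQ and LYS values of Tlr7 lie below the Control values (lowest 14.6), Tlr9 and Tlr2 lie above them, and Tlr4 overlaps in all 3 groups.

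The genes whose profile over the 9 libraries was most like that of Tlr7 were sought among 14770 genes with a mean of at least 1 CPM, by the root mean square difference of log2(CPM + 1) after each gene was centred on its own mean. The closest were Zeb2, a transcriptional repressor (0.133), Dab2, an endocytic adaptor (0.159), Gprc5c, an orphan receptor (0.172), Serping1, the C1 inhibitor of complement (0.183), and Pgm5, a phosphoglucomutase-related protein (0.183). Zeb2 had 180, 167 and 112 CPM in Control, 81.1, 50.9 and 42.8 CPM in IMQ and 77.9, 212 and 234 CPM in LYS libraries, again with LYS 1 among the IMQ values. Among the receptors and their partners, Tlr8 ranked 135 in likeness to Tlr7, Unc93b1 678, Tlr3 1163 and Tlr4 2489. Tlr9 ranked 7195, Irf5 8322, Tlr2 12972, Myd88 13303 and Cd14 14633, near the end of the list.

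The rest of the pathway was read from lists of 82 genes, of which 81 are in the table. In IMQ against Control, 31 of the 78 tested were higher and 11 lower (median log2 fold change 0.38), where 24.1% of all genes were higher and 26.9% lower, shares near to which several of the separate lists also lay. Among the other TLRs, Tlr1 (1.61) and Tlr6 (0.88), the partners of TLR2, were higher and the flagellin receptor Tlr5 (-1.56) was lower, of 5 tested. Of 16 genes of co-receptors, trafficking and processing, 2 were higher and 6 lower, with the endolysosomal transporter Slc15a3 at 2.79 and the scavenger receptor Cd36 at -3.53. None of the other 5 adaptors was a DEG, the smallest p being that of Pik3ap1 (log2 fold change 0.47). Of 18 kinases and ubiquitin ligases 7 were higher, led by Traf6 (1.79) and Irak2 (1.76), which both act below MYD88, and 1 was lower. Of 9 transcription factors 5 were higher and 0 lower, led by the NF-kB subunits Rel (1.69) and Nfkb1 (1.15). Of 12 inhibitors 5 were higher and 2 lower, among them Socs1 at 2.83 and Il1rl1 at -1.47. Of 13 genes that TLR signalling can induce, 10 were higher, led by the chemokine Cxcl2 (12.08) and the cytokine Il1b (9.56), and Ccl5 was lower (-1.87). Cxcl2 had 6, 1 and 1 reads in the Control and 2715, 10809 and 10734 reads in the IMQ libraries, so its fold change rests on very few Control reads.

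In LYS against IMQ, 0 of 79 pathway genes passed the adjusted threshold (median 0.20). At an unadjusted p under 0.05, 26 were higher and 12 lower, against 19.3% and 15.9% of all genes, so that the count of lower genes was near the share of all genes. All 5 of the other TLRs below that p, of 6 tested, and 10 of the 11 co-receptor, trafficking and processing genes below it, of 16, were higher with LYS, as were all 3 adaptors of 5. Of the 18 kinases and ubiquitin ligases 2 were higher and 5 lower at that p, and of the 13 induced genes 1 was higher and 4 lower. The smallest p of each list belonged to Tlr12 (2.25), the endolysosomal protease gene Lgmn (1.56), Pik3ap1 (1.53), Ikbke (0.82), Relb (0.49), Tollip (-0.72) and Ccl5 (1.54). In LYS against Control, 34 of 78 pathway genes were higher and 2 lower (median 0.62), against 15.1% and 12.9% of all genes. Among the DEGs of each list the largest differences were those of Tlr12 (3.05) and Tlr1 (2.46), Slc15a3 (2.37) and Cd36 (-2.09), Pik3ap1 (1.93) and Tirap (0.68), Ikbke (1.37) and Irak4 (1.07), Nfkb2 (1.06) and Irf8 (1.05), Socs1 (2.46) and Tnfaip3 (1.22), and Cxcl2 (10.06) and Il1b (8.06). Tlr12 had 3, 0 and 4 reads in the Control and 15, 16 and 17 in the LYS libraries, so its value rests on few reads.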

How the data were processed

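Total RNA of back skin was sequenced on an Illumina platform from libraries made with a NEBNext Ultra RNA kit. The submitters' processing notes name HISAT2, HTSeq 0.13.5 and GRCm38, and neither the strand setting nor the FPKM tool is given in the sources used here. The deposited table holds the raw counts of reads per Ensembl gene and the FPKM values that the authors computed from them, for 9 libraries. Per the labels, libraries were assigned to Control, IMQ and LYS, 3 each.

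Counts were filtered by expression, scaled by TMM and tested with the quasi-likelihood test of edgeR 4.0.16 (R 4.3.3) on the 6 libraries of each comparison, with Benjamini-Hochberg adjustment over all genes tested. The thresholds (adjusted p 0.05, absolute log2 fold change 0.58) are those of the study. Scripts were tested on simulated data. Alternatives were DESeq2 1.42.0, limma 3.58.1 on log2(FPKM + 1) and log2(FPKM + 0.1), other scalings and filters, a joint fit of all libraries, a replicate block and leaving out each library. Standard errors of fold changes follow from the fits, and the precision of each value is limited by 3 libraries a group at 14658645 to 19609878 counts. No 2 libraries of a group were the same library sequenced again (chi-square of their counts 16.9 to 100 for each degree of freedom). This check cannot tell separate preparations from the same mouse from preparations of different mice. Positions are from GENCODE M21 on GRCm38. The 10 genes, the pathway lists and the marker lists were chosen with earlier results of these data known. Text names the 10 genes, then, for each pathway list and comparison, the 2 DEGs with the largest absolute log2 fold change or, where there was none, the gene with the smallest p, and the 5 genes nearest to Tlr7 in profile.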

Additional observations from a re-analysis of the deposited data

How the results depend on the processing

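The counts of higher genes among the 10 in IMQ against Control (3) and in LYS against Control (5) stayed within 1.5 times under each alternative run. The 4 lower with IMQ became 2 when the 9 libraries were fitted together and 2 to 4 when a library was left out. In LYS against IMQ, the 0 higher among the 10 became 6 with DESeq2, 6 with the joint fit, 5 without the filter on low counts, 6 at an unadjusted p under 0.05 with the fold threshold, and 0 to 6 when a library was left out, the 6 being reached without LYS 1. For the pathway genes in that comparison the 0 higher became 19, 16, 18 and 22 under the same settings and 0 to 23 when a library was left out (8 without IMQ 1, 23 without LYS 1). The 0 lower became 11, 10, 7 and 10, and 0 to 9 (9 without IMQ 1 and 9 without LYS 1). Over all genes, DESeq2 called 3392, the joint fit 3040, the fit without the filter 2419, and the fits without IMQ 1 and without LYS 1 called 1873 and 4262, against 0. The 11 pathway genes lower in IMQ against Control became 20 without scaling beyond library totals, 20 with limma on log2(FPKM + 0.1) and 6 at an absolute log2 fold change over 1.

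Scaling moved the direction of values near 0. Without scaling beyond library totals the median of all genes was -0.51 in IMQ against Control, 0.29 in LYS against IMQ and -0.15 in LYS against Control, and the DEGs of IMQ against Control were 2390 higher and 6854 lower, against 3854 and 4291. In IMQ against Control, Tlr9 then stood at -0.06 and Irf5 at -0.0043. With limma on log2(FPKM + 1) and on log2(FPKM + 0.1), Tlr9 stood at -0.04 and -0.05 and Irf5 at -0.002 and -0.0021. Tlr4, no DEG in the main fit of this comparison, was lower with limma, at -0.66 and -0.79 (adjusted p = 0.00220 and 0.00227). Tlr7 in LYS against Control stood at -0.09 without scaling and at -0.21 and -0.27 with limma, and it ran from -0.29 to 0.39 when a library was left out. The cause of these changes was not tested, apart from the shift of the median.

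Replicate numbers are shared by the groups, but same-numbered libraries did not deviate together (r from -0.46 to 0.20), and not every library correlated best with its own number. With a replicate block, the calls among the 10 were 3 higher and 4 lower, 0, and 5 higher and 0 lower, the DEGs over all genes were 8044, 0 and 3126 (8145, 0 and 4476 without the block), and Tlr7 in LYS against Control stood at -0.10. Of the other recomputed values of single genes and ratios, 388 kept their direction and side of the threshold, 28 passed it only in the alternative and 9 lost it. The ratios, of Tlr7 reads to marker reads, have no threshold and counted as kept within the pooled SD of the groups compared. A further 2 of these ratios moved by more than that.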
